A study of Homo sapiens with 9 samples.

Results

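The receptor tyrosine kinase ALK, its closest relative LTK and 4 secreted ligands were followed at the level of the transcript in LAN5 cells. They were chosen by name, as the rows of the deposited table for ALK, LTK, ALKAL1, ALKAL2, PTN and MDK, with FAM150A and FAM150B accepted as older names. Rows were found for 5 of these 6 genes among the 25084 genes of the table. ALKAL1 had no row under either name and was not analysed here. LAN5 is an established human neuroblastoma line with many extra copies of MYCN, and it is known to carry an activating point mutation in the kinase domain of ALK.

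Cells were nucleofected with 1 of 3 siRNAs, grown for 72 h in RPMI-1640 with fetal calf serum, and total RNA was sequenced. The siRNAs were a control (siCTR), one against the transcription factor gene MYCN (siMYCN, labelled siMYCN_2) and one against the transcription factor gene HAND2 (siHAND2, labelled siHAND2_3), with 3 libraries each. The labels name a single siRNA per target, so the effect of losing a target and any other effect of that siRNA cannot be told apart. Nothing in the labels says that the libraries of a group came from separate cultures, so p-values measure the spread between these libraries, which may be technical.

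ALK is a cell-surface receptor that is active in the developing sympathetic nervous system and is the kinase gene most often mutated in neuroblastoma. Its secreted activators are ALKAL1 and ALKAL2, which also bind LTK. Pleiotrophin (PTN) and midkine (MDK) are small heparin-binding growth factors that were proposed as ALK ligands and that also bind receptor phosphatases, syndecans, glypicans and integrins. The activated receptor signals through adaptors to the RAS and ERK cascade and to PI3 kinase, and ERK in turn raises feedback genes such as the DUSP phosphatases and the Sprouty genes.

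In the control cells the receptor ALK and the ligand MDK were abundant, PTN was moderate, and ALKAL2 and LTK were near the detection limit. ALK rose in siMYCN and fell in siHAND2. Both PTN and MDK rose after either knockdown.

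Promoter windows are shown because both siRNAs target factors that bind E-box letters, the pattern CANNTG. The form known for MYCN is CACGTG. A form known for HAND2 is CATCTG, which reads as CAGATG on the other strand. The windows are from RefSeq (GRCh38.p14), from 250 bases before to 50 bases after an annotated start, and were given for ALK (at 2 starts), LTK, ALKAL2 and PTN. Those of ALK and PTN, the members with a window that changed, are printed 5′ to 3′ on the gene's strand, with every CANNTG match on either strand in capitals. The outer ALK start is the 5′ end of the gene at chr2:29921537-29921836 (minus strand), the inner ALK start lies within the gene at chr2:29223774-29224073 (minus strand), and the PTN window is chr7:137343684-137343983 (minus strand).
ALK outer start: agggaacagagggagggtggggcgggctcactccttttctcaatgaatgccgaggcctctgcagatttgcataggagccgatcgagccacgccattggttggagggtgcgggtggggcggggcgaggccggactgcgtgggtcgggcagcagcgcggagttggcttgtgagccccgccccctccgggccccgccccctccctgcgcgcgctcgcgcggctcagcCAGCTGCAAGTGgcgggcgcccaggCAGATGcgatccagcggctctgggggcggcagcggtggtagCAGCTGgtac
ALK inner start: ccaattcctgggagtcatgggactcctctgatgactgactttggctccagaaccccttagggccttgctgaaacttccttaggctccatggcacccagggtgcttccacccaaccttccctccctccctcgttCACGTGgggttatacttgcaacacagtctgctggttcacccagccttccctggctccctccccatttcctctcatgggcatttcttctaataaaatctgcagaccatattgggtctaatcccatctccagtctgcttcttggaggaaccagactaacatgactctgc
PTN: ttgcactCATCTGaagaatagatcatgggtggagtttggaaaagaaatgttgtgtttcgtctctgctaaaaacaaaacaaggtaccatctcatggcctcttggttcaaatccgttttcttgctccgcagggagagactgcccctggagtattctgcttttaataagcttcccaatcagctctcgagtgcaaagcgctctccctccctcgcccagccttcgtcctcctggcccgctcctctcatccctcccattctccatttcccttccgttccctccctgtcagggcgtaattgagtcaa

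The outer ALK window held 4 CANNTG matches, and 1 of these was CAGATG, which began 1 base before the start. No CACGTG was found in it. The inner ALK window held a single match, which was CACGTG. The PTN window held a single match, CATCTG. The LTK window also held 1 CATCTG, and the ALKAL2 window held none of the 3 motifs. Among 35116 RefSeq windows of this length, 7.26% held CACGTG, 14.7% held CATCTG or its complement and 68.7% held CANNTG. A match describes letters only, CACGTG and CATCTG matches are also CANNTG matches, and the expression table cannot say whether a factor is bound there.

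Levels are given in CPM, the reads of a gene scaled to the same total of assigned reads in every library. The siRNA targets were checked first. MYCN fell from a mean of 1842 CPM in siCTR to 1289 CPM in siMYCN and 914 CPM in siHAND2. HAND2 measured 501, 571 and 272 CPM in the same order. Thus siHAND2 cells had less of both transcripts, and siMYCN cells had less MYCN with more HAND2. The step between low values gave depths between 21.1 and 32.7 M (mega) reads per library, so that 1 read was worth 0.0306 to 0.0475 CPM. All 14 neuroblastoma markers listed had a mean of at least 1 CPM in siCTR and siMYCN, and 13 did in siHAND2, whereas none of the Schwann cell, immune or endothelial markers in the table reached that mean in any group. Of 10 fibroblast and mesenchymal markers listed, 7 reached a mean of 1 CPM in siCTR and 8 did in each knockdown.

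The ALK gene lies on chromosome 2 from 29192774 to 29921586 (GRCh38). Control replicates 1, 2 and 3 held 288, 284 and 263 CPM of ALK. The siMYCN replicates held 369.7, 352 and 360.0 CPM, in the same order. In the siHAND2 replicates ALK stood at 203, 210.4 and 192 CPM. Every siMYCN library lay above every siCTR library and every siHAND2 library lay below, so the 3 groups did not overlap. How many genes of the table separate in this way was not counted, here or for PTN and MDK below. In bulk RNA, fewer cells that express a gene and less of its RNA per cell cannot be told apart. Group means ± SD were 278 ± 13.5, 361 ± 8.74 and 202 ± 9.34 CPM (n = 3 libraries per group), which put siMYCN at 129.7% and siHAND2 at 72.6% of siCTR.

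All tests below are from limma fitted to log2(CPM + 1) of all 9 libraries, with two-sided p-values adjusted by the Benjamini-Hochberg method over 14495 genes and a threshold of 0.05. Added to each value, the 1 CPM makes these log2 differences understate the change of genes near 1 CPM. ALK rose by 0.37 in siMYCN (standard error 0.05, adjusted p = 1.24e-05), a 1.30-fold change. In siHAND2 it changed by -0.46 (standard error 0.05, adjusted p = 1.19e-06), to 0.727-fold. Set directly against siMYCN, siHAND2 differed by -0.83 (95% interval -0.93 to -0.74, adjusted p = 6.61e-10), the 295th largest absolute difference of all genes tested.

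**Figure D1:**
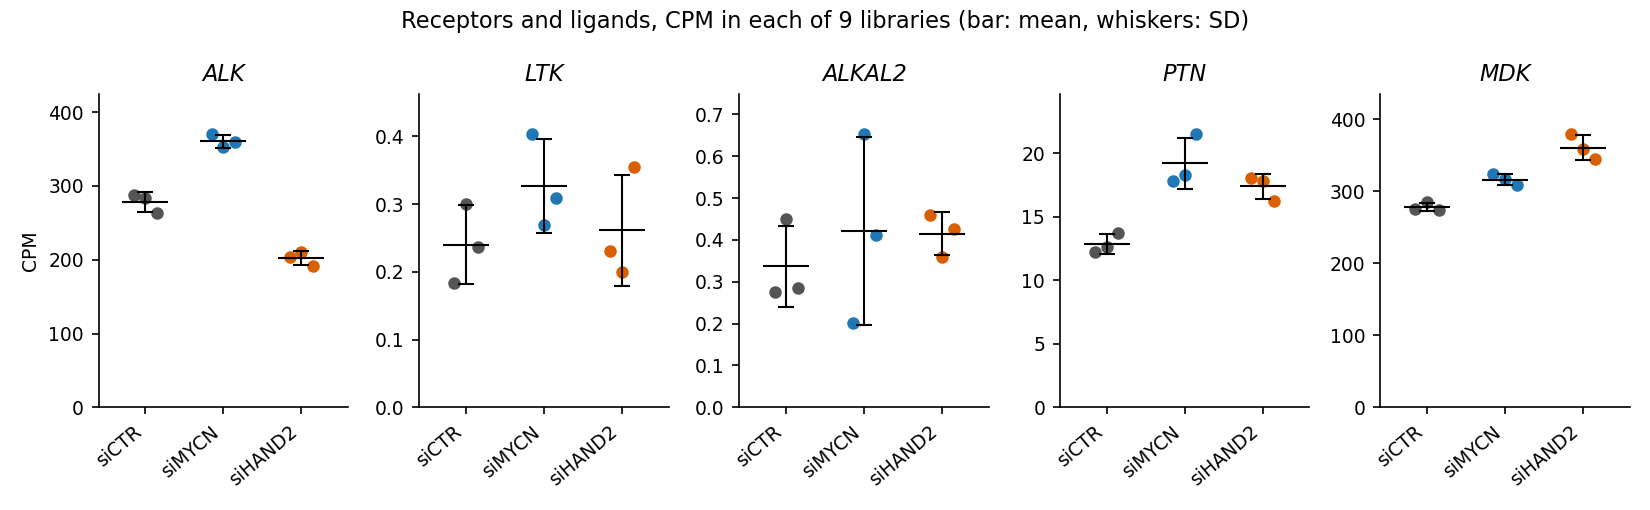
Each dot is the CPM of 1 library, with 1 panel per gene and separate vertical axes from 0; the bar is the mean and the whiskers the SD of 3 libraries. ALK separates into 3 levels (361 CPM in siMYCN, 278 in siCTR, 202 in siHAND2), PTN and MDK are higher in both knockdowns, and the groups of LTK and ALKAL2 overlap.

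4 shorter genes of the table overlap the ALK gene, and the use of strand in counting is not given in the sources used here. Their means were 0.0561 CPM (AC074096.1), 0.816 CPM (AC106870.2), 0.249 CPM (AC106870.3) and 0.110 CPM (RN7SL516P), and no library held more than 1.27 CPM of any of them. These values are small beside the smallest ALK value of 192 CPM.

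LTK (chromosome 15, 41503637 to 41513887) is the only other receptor of the family. Its level was 0.184, 0.30 and 0.237 CPM with the control siRNA. With siMYCN it was 0.403, 0.269 and 0.308 CPM, and with siHAND2 0.23, 0.199 and 0.354 CPM. Each library held between 5 and 10 LTK reads. The groups overlapped in all 3 comparisons, and LTK did not pass the filter of 1 CPM in 3 libraries. Pooled over a group, 19, 26 and 22 reads were counted in siCTR, siMYCN and siHAND2. The ratio of siMYCN to siCTR was 1.38 with an exact binomial 95% interval of 0.732 to 2.63, and that of siHAND2 to siCTR was 1.11 (0.575 to 2.17). A difference was therefore not detectable at this depth, and the intervals cover counting error only.

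ALKAL2 (chromosome 2, 279558 to 288851), the ALKAL ligand with a row, was similarly scarce. Control libraries held 0.275, 0.449 and 0.285 CPM of it. With siMYCN its level was 0.201, 0.652 and 0.411 CPM, and with siHAND2 0.461, 0.359 and 0.425 CPM. These values correspond to 5 to 17 reads per library, and the groups overlapped in all 3 comparisons. The ratio to siCTR was 1.27 (exact binomial 95% interval 0.741 to 2.18) in siMYCN and 1.25 (0.733 to 2.14) in siHAND2. In a fit with no filter on low values, neither LTK nor ALKAL2 passed the threshold in any contrast, with adjusted p from 0.445 to 0.987 (limma).

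PTN (chromosome 7, 137227341 to 137343774) stood at 12.2, 12.7 and 13.8 CPM in the control libraries. With siMYCN it reached 17.8, 18.3 and 21.5 CPM, and with siHAND2 18.1, 17.8 and 16.3 CPM. All 6 knockdown libraries lay above all 3 siCTR libraries, while the siMYCN and siHAND2 libraries overlapped. A shorter gene that overlaps PTN, AC078842.3, had a mean of 0.135 CPM. Group means ± SD were 12.9 ± 0.792, 19.2 ± 1.99 and 17.4 ± 0.98 CPM (n = 3 libraries per group). PTN rose by 0.54 in siMYCN (standard error 0.08, limma, adjusted p = 5.95e-05) and by 0.41 in siHAND2 (standard error 0.08, adjusted p = 0.00088). Between the knockdowns the difference was -0.13 with a 95% interval of -0.30 to 0.03 (adjusted p = 0.227), which does not show that the levels are the same.

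MDK (chromosome 11, 46380756 to 46383837) stood at 276, 285 and 275 CPM in the control libraries. With siMYCN it reached 324, 317 and 309 CPM, and with siHAND2 379, 358 and 345 CPM. The 3 groups did not overlap, and their order was siCTR, siMYCN, siHAND2 from low to high. Group means ± SD were 279 ± 5.84, 316 ± 7.64 and 361 ± 17.1 CPM (n = 3 libraries per group). MDK rose by 0.18 in siMYCN (standard error 0.04, limma, adjusted p = 0.00317), the smallest of the called changes among these genes. It rose by 0.37 in siHAND2 (standard error 0.04, adjusted p = 5.38e-06). Between the knockdowns MDK was 0.19 higher in siHAND2 (limma, adjusted p = 0.00327).

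For scale, 35.9% of all genes tested passed the threshold in siMYCN against siCTR, 29.9% in siHAND2 against siCTR and 26.9% in siHAND2 against siMYCN. In siMYCN 24.5% of genes were called higher and 11.4% lower, and in siHAND2 18.1% were higher and 11.8% lower. The balance depended on scaling: rises made up 68.3% of the siMYCN calls on the deposited scale, 51.2% when libraries were rescaled by their median ratio and 49.3% when quantile normalized. For siHAND2 the shares were 60.6%, 47.1% and 47.8%. Calls are thus common in this table, and sizes say more than the count of 3 called genes. By absolute difference, ALK stood at the 89.1 percentile of all genes tested in siMYCN and at 93.2 in siHAND2. PTN stood at 96.3 and 91.3, and MDK at 61.6 and 89.4. The contrasts with siCTR share their control libraries.

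**Figure D2:**
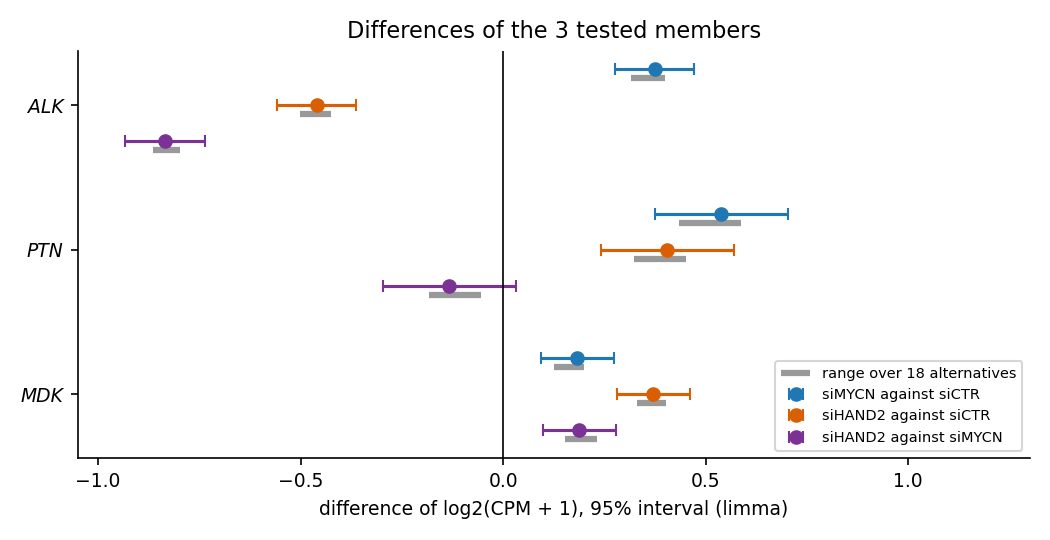
The horizontal axis is the difference of log2(CPM + 1) for ALK, PTN and MDK in 3 comparisons; dots are limma estimates, whiskers 95% intervals, and grey bars the range over 18 alternative settings. ALK lies at 0.37 in siMYCN and at -0.46 in siHAND2, both PTN and MDK lie above 0 in either knockdown, and only the interval of PTN between the knockdowns includes 0.

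Levels of different genes were compared per length of the longest annotated transcript. In siCTR, MDK reached 208 ± 4.36 CPM per kb, ALK 44.6 ± 2.16, PTN 8.06 ± 0.495, ALKAL2 0.284 ± 0.0827 and LTK 0.0697 ± 0.0169 (SD, n = 3 libraries). The ranges of neighbouring genes in this order did not meet. With the length of all annotated exons in its place, MDK stood at 128, ALK at 37.7 and ALKAL2 at 0.169 CPM per kb, in the same order. Midkine was therefore the ligand transcript with the highest level on this scale, and both ALKAL2 and LTK lay far below ALK.

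**Figure D3:**
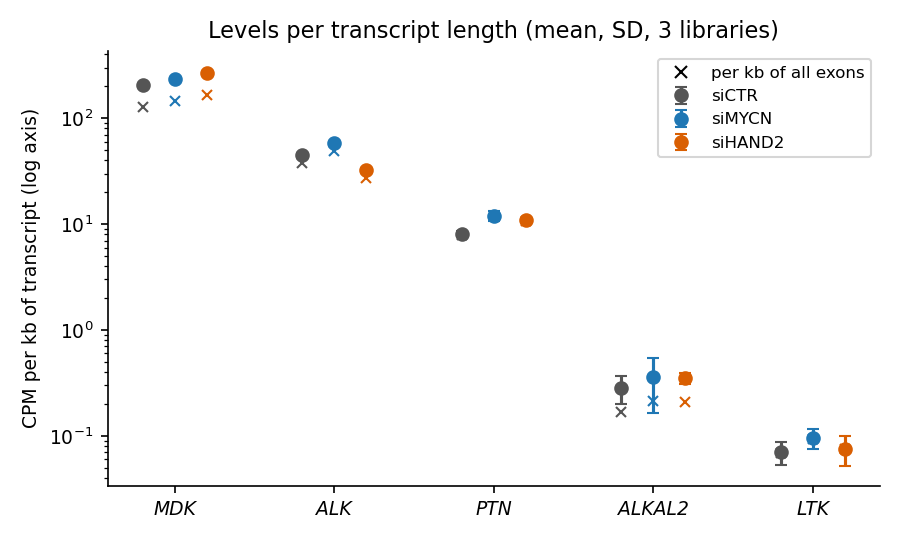
The vertical log axis is CPM per kb of the longest annotated transcript (dots, mean with SD of 3 libraries) or of all annotated exons (crosses), for 5 genes in 3 groups. The order is MDK, ALK, PTN, ALKAL2 and LTK in each group, from 208 down to 0.0697 CPM per kb in siCTR.

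The next question was which cell-surface partners of PTN and MDK other than ALK were measured. Of 17 listed genes, 16 had a row and 14 passed the filter. PTPRZ1, the receptor phosphatase that both ligands bind, had no row. In siMYCN 6 of the 14 rose and 1 fell, and the median log2 difference was 0.15, beside 0.06 over all genes tested. In siHAND2 5 rose and 3 fell, with a median of 0.03 beside 0.04. These calls covered 50% of the tested list in siMYCN and 57.1% in siHAND2, beside 35.9% and 29.9% of all genes tested. The fall in siMYCN was that of NCL (-0.20), the gene of nucleolin, and it was lost with no filter, with no intensity trend, and on leaving out siCTR library 1 or 2 or siMYCN library 2. LRP1, a large endocytic receptor, rose by 0.43 in siHAND2, and SDC1 and NCL changed by -0.28 and -0.26. LRP1, SDC1 and NCL were named to complete the counts, after their values were seen. The rises in siMYCN ran from 4 to 11 over the alternative settings, with 10 without siHAND2 replicate 3, which enters through the shared spread. Without that library 6 of the genes fell in siHAND2. The falls in siMYCN numbered 2 under the replicate block, 3 with median-ratio rescaling and 2 when quantile normalized, and both rescalings left 4 rises.

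The integrin subunit gene ITGA6 went from 11.6 ± 1.57 CPM in siCTR to 19.4 ± 0.698 in siMYCN and 24.8 ± 1.43 in siHAND2, rising by 0.70 (limma, adjusted p = 7.15e-06) and 1.04 (adjusted p = 7.27e-08). GPC2, a cell-surface glypican of developing neurons, rose by 0.36 in siMYCN (adjusted p = 0.000141) and 0.21 in siHAND2 (adjusted p = 0.00968). SDC3, a syndecan known as a neuronal receptor of PTN, rose by 0.31 in siMYCN (adjusted p = 0.00108). Its rise of 0.21 in siHAND2 (adjusted p = 0.0168) was lost without siCTR replicate 2 (0.19), without siHAND2 replicate 2 (0.19) and after quantile normalization (0.17). These 3 genes rose with the ligands in both knockdowns.

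Of the partners, SDC2 and NOTCH2 also had large differences in siHAND2. SDC2, another syndecan, fell from 134 ± 5.42 to 62.0 ± 3.07 CPM, a difference of -1.10 (limma, adjusted p = 1e-10). NOTCH2, a Notch receptor reported to bind MDK, rose from 83.9 ± 4.32 to 165 ± 8.42 CPM, a difference of 0.97 (adjusted p = 2.3e-09). Between siHAND2 and siMYCN, SDC2 differed by -1.02 and NOTCH2 by 1.11 (adjusted p = 1.24e-10 and 2.75e-10).

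Adaptors and kinases that relay the ALK signal were listed as 40 genes, of which 38 passed the filter. In siMYCN 18 rose, 1 fell and 19 did not pass, with a median difference of 0.14 beside 0.06 over all genes tested. In siHAND2 12 rose, none fell and 26 did not pass, with a median of 0.09 beside 0.04. Called shares were 50% in siMYCN and 31.6% in siHAND2, beside 35.9% and 29.9% of all genes tested. The fall was that of NRAS (-0.29), named after its value was seen. The replicate block and the fit of the 2 groups alone each gave 2 falls in siMYCN, as did leaving out siMYCN replicate 1 or siHAND2 replicate 3. Each rescaling left 12 rises and 2 falls in siMYCN. In siHAND2 the falls numbered 1 with median-ratio rescaling and 2 when quantile normalized, each beside 11 rises. Over all alternative settings the rises ran from 12 to 21 in siMYCN and from 9 to 16 in siHAND2.

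SHC1, the adaptor that binds the phosphorylated receptor, went from 63.0 ± 2.27 to 99.4 ± 3.80 CPM in siMYCN, a rise of 0.65 (limma, adjusted p = 9.31e-08). The kinase gene SRC rose by 0.62 (adjusted p = 7.72e-07) and the docking protein gene GAB2 by 0.55 (adjusted p = 1.1e-06). SHC1 and SRC also rose in siHAND2, by 0.27 and 0.22, and all 3 were lower in siHAND2 than in siMYCN, by -0.38, -0.39 and -0.62.

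The largest difference of this list in siHAND2 was that of PIK3R1, a regulatory subunit of PI3 kinase, which went from 48.7 ± 2.71 to 73.6 ± 1.60 CPM, a rise of 0.59 (limma, adjusted p = 1.43e-07). The docking protein gene GAB1 rose by 0.44 (adjusted p = 4.66e-05) and IRS1, an adaptor that binds ALK, by 0.41 (adjusted p = 0.000576). PIK3R1 rose in siMYCN too, by 0.36, and all 3 were higher in siHAND2 than in siMYCN.

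Genes that limit or stabilise receptor kinases were listed as 14, of which 13 passed the filter. In siMYCN 4 rose and 3 fell (median 0.03 beside 0.06 over all genes tested), and in siHAND2 1 rose and 1 fell (median 0.00 beside 0.04). Calls thus made up 53.8% of the tested list in siMYCN and 15.4% in siHAND2, beside 35.9% and 29.9% of all genes tested. The replicate block gave 2 rises and 2 falls in siHAND2, and both rescalings gave 2 falls. In siMYCN the receptor phosphatase gene PTPRG fell by 0.37 on the log2 scale (limma, adjusted p = 2.43e-05), while another one, PTPRA, rose by 0.27 (adjusted p = 0.00057). The ubiquitin ligase gene CBLB rose by 0.22 (adjusted p = 0.00281). The other siMYCN calls, named after their values were seen, were PTPRB (0.51), CBL (0.17), PTPRF (-0.22) and HSP90AB1 (-0.21), and the last turned to 0.03 after quantile normalization. The CBL call was lost after both rescalings, with no intensity trend and on leaving out siCTR library 2 (0.18), siCTR library 3 (0.14) or siMYCN library 3 (0.11). In siHAND2 the chaperone gene HSP90AB1 changed by -0.28 (adjusted p = 0.000147). CBL, a ligase for activated receptor kinases, rose by 0.16 in siHAND2 (adjusted p = 0.04), and this call was lost in 9 of 18 alternatives. Those 9 were no filter, both rescalings, no intensity trend, and the fits without siCTR replicates 1 (0.17), 2 (0.17) or 3 (0.13) or without siHAND2 replicates 2 (0.15) or 3 (0.13).

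Transcripts known to answer ALK or ERK activity were listed as 21 genes, of which 19 passed the filter. Like the others, this list was chosen with earlier results of these data known, and RET is also in the receptor list below. In siMYCN 14 of the 19 rose and none fell, with a median of 0.51 beside 0.06 over all genes tested. In siHAND2 5 rose and 9 fell, with a median of -0.16 beside 0.04. Either knockdown had 73.7% of the tested list called against siCTR, beside 35.9% of all genes tested in siMYCN and 29.9% in siHAND2. The direct comparison gave 14 lower and none higher in siHAND2, with a median of -0.64 beside -0.01, where 15.5% of all genes tested were lower. Over the alternative settings the rises in siMYCN ran from 12 to 16 and the falls there from 0 to 1. The falls in siHAND2 ran from 8 to 9 and the lower genes in the direct comparison from 13 to 14. The rises in siHAND2 were CCND1, SPRED3, DUSP4, SPRED2 and SPRY1, the last 4 named after their values were seen. Only 2 rises were called without siCTR replicate 2 or siCTR replicate 3, and 3 without siHAND2 replicate 2 or 3. With median-ratio rescaling or no intensity trend 3 rises were called, and with quantile normalization or no filter 2. Of 18 alternatives, the call of SPRY1 was lost in 13, that of SPRED2 in 8 and that of SPRED3 in 5, while CCND1 and DUSP4 kept theirs in all 18.

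The ERK phosphatase gene DUSP6 had the largest rise in siMYCN, from 114 ± 7.18 to 209.9 ± 7.09 CPM (0.88, limma, adjusted p = 1.39e-08). The kinase receptor gene RET followed, from 369 ± 9.78 to 659 ± 22.3 CPM (0.83, adjusted p = 2.44e-09), and then the feedback inhibitor gene SPRY2 from 51.6 ± 1.74 to 85.9 ± 1.78 CPM (0.73, adjusted p = 5.48e-08). In siHAND2 DUSP6 measured 100.1 ± 5.39, RET 261 ± 7.39 and SPRY2 43.3 ± 2.57 CPM. RET fell by 0.50 there (adjusted p = 1.33e-07) and SPRY2 by 0.25 (adjusted p = 0.00143). The smaller fall of DUSP6 (-0.18, adjusted p = 0.0151) was lost with no intensity trend and without siCTR replicate 1 (-0.16), siCTR replicate 2 (-0.15) or siHAND2 replicate 2 (-0.15).

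In siHAND2 the largest falls of the list were those of PHLDA1, ETV1 and RET. PHLDA1, an early response gene, fell from 35.7 ± 5.42 to 20.7 ± 3.50 CPM (-0.76, limma, adjusted p = 3.89e-05) and rose in siMYCN to 54.9 ± 2.49 CPM (0.62). ETV1, an ETS factor gene, fell from 36.7 ± 0.797 to 24.0 ± 2.36 CPM (-0.60, adjusted p = 4.00e-06). The related ETS genes ETV4 and ETV5, named here after their values were seen, both rose in siMYCN and fell in siHAND2: ETV4 by 0.56 and -0.47, and ETV5 by 0.53 and -0.37. CCND1, the cyclin D1 gene, did otherwise, and rose by 0.47 in siMYCN and 0.49 in siHAND2.

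**Figure D4:**
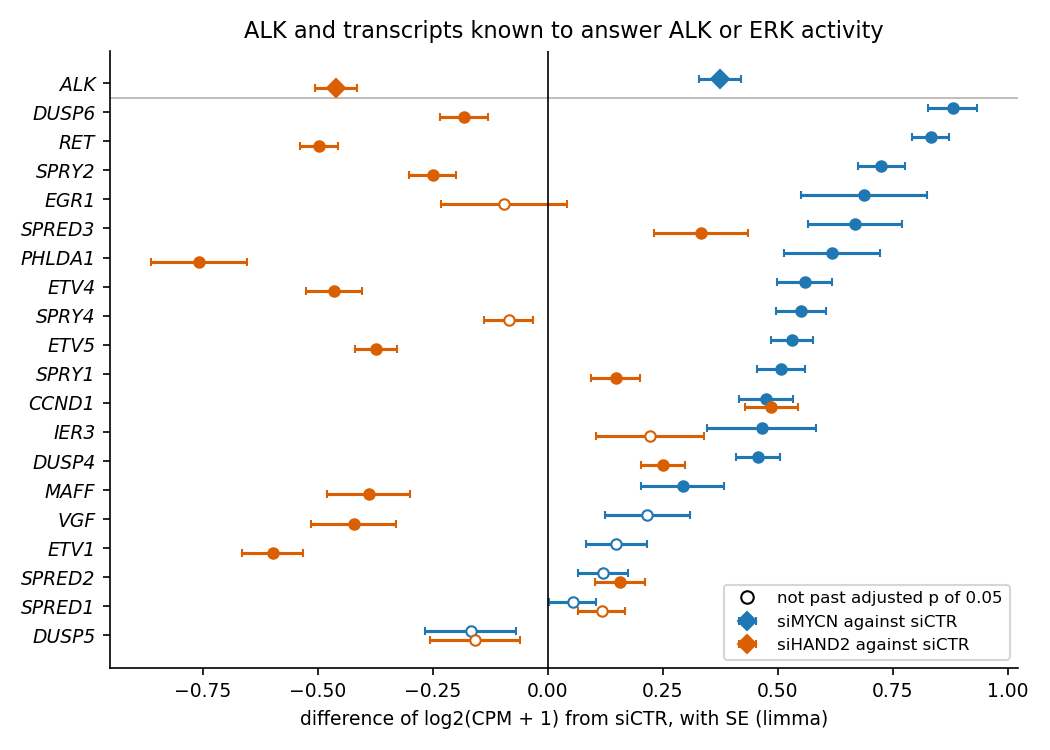
Each row is a gene, the horizontal axis is the difference of log2(CPM + 1) from siCTR with its standard error, blue for siMYCN and orange for siHAND2, and open dots did not pass an adjusted p of 0.05. The blue dots of 14 of the 19 listed genes are called above 0, while the orange dots of 9 genes and of ALK are called below 0.

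Receptors of similar roles in these cells were set beside ALK. Of RET and the listed GDNF-family and neurotrophin receptors, 8 of 9 passed the filter, 7 of these rose in siMYCN and none fell. In siHAND2 6 rose and 2 fell, the latter being RET and, named after its value was seen, GFRA2 (-0.18, limma, adjusted p = 0.0367). Only 1 fall was called without any one of the siCTR libraries or without siHAND2 replicate 3. Over the alternative settings the rises ran from 5 to 7 in siMYCN and from 3 to 6 in siHAND2. Among the siHAND2 rises were GFRA3, NTRK3 and NGFR, with siHAND2 means of 1.62, 1.25 and 3.97 CPM. These low genes were named after their values were seen. The medians, with the low genes included, were 0.64 in siMYCN and 0.42 in siHAND2, beside 0.06 and 0.04 over all genes tested. Calls covered 87.5% and 100% of the tested list, beside 35.9% and 29.9% of all genes tested. NTRK2, a neurotrophin receptor gene, rose after either knockdown, by 0.46 with siMYCN and by 0.55 with siHAND2 (limma, adjusted p = 1.52e-05 and 1.82e-06). RET, like ALK, was high in siMYCN and low in siHAND2, with a direct difference of -1.33 (adjusted p = 9.03e-13) beside the -0.83 of ALK.

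Position along the chromosome was not used in choosing the genes. CLIP4, which ends 3.13 kb from ALK, differed from siCTR by 0.03 in siMYCN and 0.10 in siHAND2, and neither passed the threshold (limma, adjusted p = 0.796 and 0.314). On that side WDR43, 245 kb away, was lower in both knockdowns (-0.41 and -0.27). On the other side YPEL5, 225 kb away, rose by 0.43 and 0.32, and LBH, 309.9 kb away, rose by 0.35 and 0.76. None of these 4 neighbours shared the rise in siMYCN with a fall in siHAND2, a pattern called in 1.97% of all genes tested. At that share, 4 genes without it do not set ALK apart from its surroundings.

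CHRM4, a muscarinic receptor gene 1.26 kb from MDK, rose by 0.64 in siMYCN (limma, adjusted p = 9.83e-06) and changed by -0.66 in siHAND2 (adjusted p = 6.98e-06), whereas MDK rose in both. On the other side of MDK, DGKZ lies 0.201 kb away and differed by 0.16 in siMYCN (adjusted p = 0.0326). That call was lost after both rescalings, with no intensity trend, without any of the 3 siCTR libraries (0.15 to 0.17) and without siMYCN replicate 1 or 3 (0.14 and 0.13). In siHAND2 DGKZ differed by 0.02 (adjusted p = 0.837). PHF21A, 260 kb away on that side, did not pass in either knockdown (0.02 and 0.03). Beyond CHRM4, AMBRA1 rose by 0.19 in siMYCN (adjusted p = 0.0112) and did not pass in siHAND2 (0.04). The AMBRA1 call in siMYCN was lost after both rescalings and without siMYCN replicate 1. Near PTN, the muscarinic receptor gene CHRM2, 207 kb away, rose by 0.26 and 0.52, and DGKI, 37.3 kb away, rose by 0.21 in siHAND2, a call lost without siCTR replicate 2 (0.17). AC009264.1, 45.2 kb from PTN and at a mean of 0.90 CPM, did not pass in siMYCN (-0.22) and rose by 0.46 in siHAND2. That call was lost in 4 of 17 alternatives. CREB3L2, 531 kb from PTN, did not pass in either knockdown (-0.11 and -0.07).

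**Figure D5:**
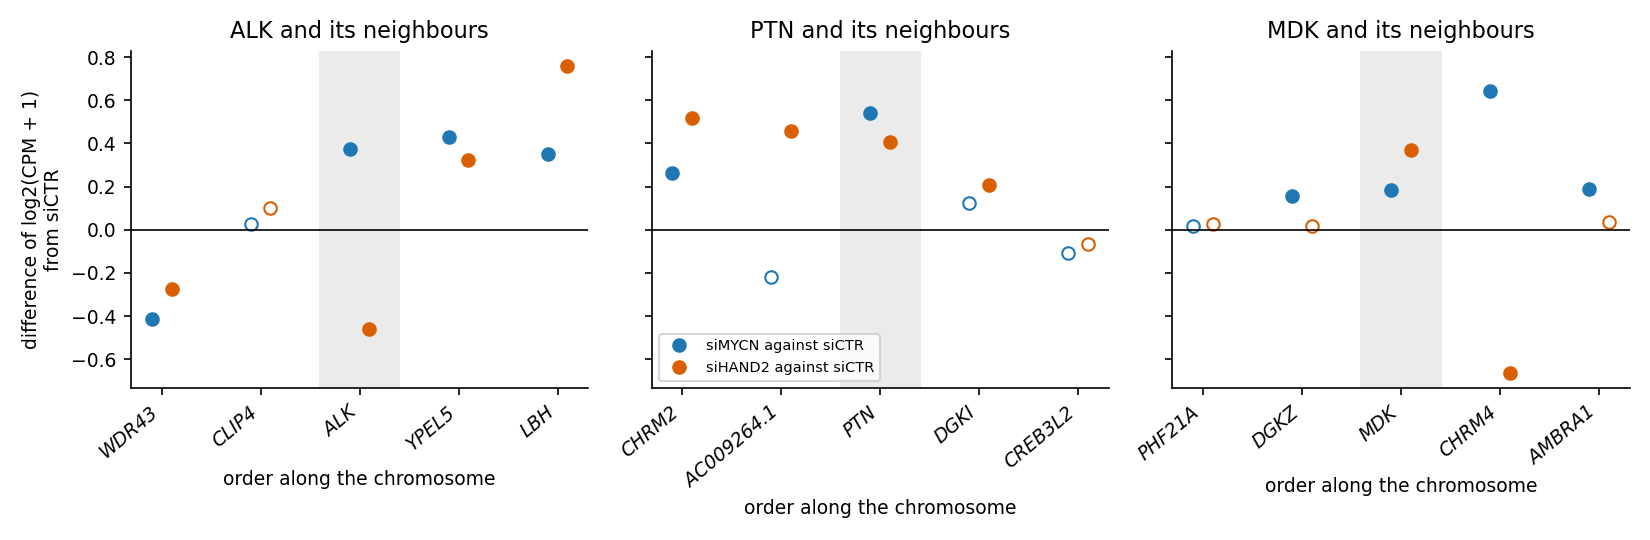
The vertical axis is the difference of log2(CPM + 1) from siCTR for ALK, PTN and MDK (grey band) and the 2 nearest genes on each side that passed the filter, in chromosomal order and not to scale; filled dots passed an adjusted p of 0.05. ALK is the gene of its panel with the siMYCN dot at 0.37 and the siHAND2 dot at -0.46, and CHRM4 shows opposite signs beside MDK.

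Genes with the most similar pattern were found by Pearson correlation of log2(CPM + 1) over the 9 libraries, among genes whose mean reached 5 CPM. The 9 points share depth and form 3 groups, so high values are easily reached and are given as a description. For ALK these were PPP1R16B (r = 0.994), at 57.2, 78.1 and 35.3 CPM in siCTR, siMYCN and siHAND2, and PRRT4 (r = 0.992), at 87.8, 136 and 58.8 CPM. The fifth in that order was ETV4 (r = 0.99), named after its rank was seen. For PTN they were PCDHGC3 (r = 0.995), of a gene cluster with shared exons that makes its count uncertain, and ZBTB4 (r = 0.981). For MDK they were IGSF3 (r = 0.99) and the DNA methyltransferase gene DNMT3A (r = 0.987).

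The sympathetic neuroblastoma markers moved in part with ALK. Of the 14, 12 rose in siMYCN and none fell (median 0.34 beside 0.06 over all genes tested). In siHAND2 4 rose and 5 fell (median -0.03 beside 0.04). Called markers were 85.7% in siMYCN and 64.3% in siHAND2, beside 35.9% and 29.9% of all genes tested. Marker calls, here and in the next paragraph, were not followed in the alternative settings. The markers that fell in siHAND2, named after their values were seen, rose in siMYCN. They were the catecholamine synthesis genes DBH (0.38 in siMYCN and -1.01 in siHAND2), TH (0.36 and -0.70) and DDC (0.30 and -0.25), and the transporter genes SLC6A2 (1.10 and -0.42) and SLC18A1 (1.24 and -0.75). The 4 that rose in siHAND2 also rose in siMYCN, and were likewise named after their values were seen. They were STMN2 (0.71 in siMYCN and 0.95 in siHAND2), GAP43 (0.63 and 0.77), ISL1 (0.31 and 0.63) and GATA3 (0.14 and 0.14). The summed level of all 14 markers was 2889 to 3046 CPM in siCTR, 3592 to 3719 CPM in siMYCN and 3080 to 3211 CPM in siHAND2. The part of these markers in the changes of ALK was not tested.

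Most mesenchymal markers tested moved in the direction of MDK. Of 10 listed, 8 passed the filter, and 7 of these rose in siMYCN and 7 in siHAND2, where THY1 fell (-0.20). The medians were 0.56 and 0.99, beside 0.06 and 0.04 over all genes tested, where 24.5% and 18.1% were called higher. COL1A1 and PRRX1 did not pass the filter, and their means were lower in both knockdowns. The summed level of all 10 was 763 to 802 CPM in siCTR, 1008 to 1053 CPM in siMYCN and 1404 to 1585 CPM in siHAND2. VIM alone had means of 525, 696 and 1011 CPM in the same order. These 4 genes were named after their values were seen. The markers of Schwann cells, immune cells and endothelium summed to at most 3.34 CPM, 0.964 CPM and 1.49 CPM in any library, and PECAM1, CDH5, PTPRC and CD14 had means under 0.1 CPM in every group. The part of the mesenchymal genes in the rise of MDK and PTN was not tested.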

How the data were processed

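The deposited table held CPM values of 25084 genes in 9 libraries. Per the submitters' processing notes, reads were processed with STAR 2.5.1 and Partek. The counting tool, annotation and use of strand are not given in the sources used here. Every value carries an added constant of 0.0001 CPM, which was subtracted only in estimating reads, and no value column was left unused. The notes name hg19, but 91.4% of 18215 gene symbols start within 5000 bases of their GRCh38 position and only 5.62% of 18635 do so for GRCh37. Positions are therefore given as GRCh38, counted from 1.

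Reads per library were estimated from the step between low CPM values, and 79.8 to 81.3% of values of up to 20 reads were whole within 0.02. That was too few for a count model, so limma 3.58.1 (R 4.3.3) with an intensity trend was fitted to log2(CPM + 1) for all 3 groups. A gene was tested if 3 or more libraries reached 1 CPM (14495 tested, 10589 left out). Rescaling by the median ratio to the geometric mean, over genes at 1 CPM or more in every library, moved the median difference of all genes from 0.06 to 0.01 in siMYCN and from 0.04 to 0.00 in siHAND2. The fit was tested on simulated data.

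The genes and lists were chosen with earlier results of these data known. Of each list, the 3 called genes of largest absolute difference per contrast with siCTR and a mean of at least 5 CPM are named. For ALK, PTN and MDK, the 2 genes most alike in pattern and the 2 nearest tested neighbours per side are named too. Single values of some listed genes are not reported here. Alternatives were the pseudocount (0.1 or 5), the filter (none or 5 CPM), both rescalings, no intensity trend, a replicate block, the 2 groups alone and each library left out. Deviations of same-numbered libraries correlated at 0.208, 0.102 and 0.215 between siCTR and siMYCN, at 0.154, 0.121 and 0.266 between siCTR and siHAND2, and at 0.434, -0.129 and 0.245 between the knockdowns. Those of different-numbered libraries ran from -0.196 to 0.0397 between siCTR and siMYCN and from -0.273 to 0.179 between siCTR and siHAND2. Between the knockdowns they ran from -0.437 to 0.219. The numbers come from the sample titles, and these values do not settle whether they pair the libraries. The main fit did not use them.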

Additional observations from a re-analysis of the deposited data

How the results depend on the processing

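All 9 differences of ALK, PTN and MDK kept their direction and their side of the threshold in the 18 alternatives run (limma). Leaving out 1 library at a time, ALK ran from 0.33 to 0.40 in siMYCN, from -0.50 to -0.42 in siHAND2 and from -0.86 to -0.80 between the knockdowns. PTN ran from 0.46 to 0.59, from 0.37 to 0.45 and from -0.18 to -0.05, and MDK from 0.17 to 0.20, from 0.33 to 0.40 and from 0.15 to 0.22. The largest adjusted p of MDK in siMYCN was 0.0406. The replicate block changed no call of these genes. It raised the calls over all genes from 5209 to 5895 in siMYCN, from 4339 to 5089 in siHAND2 and from 3892 to 4689 between the knockdowns. With 1 library left out these counts ran from 4013 to 5854, from 3075 to 4290 and from 2909 to 3940. Between the knockdowns, where rises were 42.4% of calls, median-ratio rescaling gave 49.6% and quantile normalization 51.9%. Calls were followed for the genes of largest difference in each list, for all tested output genes and for neighbours of ALK, PTN and MDK. Of these 103 calls, 87 held in every alternative. Other list calls, such as those of NCL and GFRA2, were not among them, nor were the marker calls. The share therefore does not describe all list calls. Only HSP90AB1 in siMYCN reversed among the 103, to 0.028 after quantile normalization (adjusted p = 0.415), and the cause was not tested. Per length of all exons, ALK stood at 37.7, ALKAL2 at 0.169 and MDK at 128 CPM per kb in siCTR, since that length is greater. Depth limits LTK and ALKAL2, for which 3 reads correspond to 0.0917 to 0.142 CPM in a library.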
